A study of Tribolium castaneum with 8 samples.

Results

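Among the 14422 genes listed in at least 1 of the RNA libraries of the red flour beetle Tribolium castaneum, 489 were annotated as sugar or solute carrier transporters. They were found by searching each gene's protein description and its KEGG orthology field for sugar, trehalose or glucose transporter, solute carrier family, amino acid transporter or monocarboxylate transporter, in capitals or not. All 489 matched in the KEGG field and 39 of them also in the description, so the choice rests on homology and not on expression. The series followed whole bodies of strain GA-1, reared on wheat flour with yeast, as embryos of 3 days, late larvae of about 20 days, pupae of 3 days and adults of 3 days. RNA enriched on oligo(dT) beads was sequenced as 1 library per stage. Pools of animals are described for the matching DNA, while neither the number of animals behind each RNA library nor the sex of the adults is stated. The 4 bisulfite libraries of the series were not analysed here.

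Solute carriers are membrane proteins that move sugars, amino acids, organic acids, ions, nucleotides and vitamins across the cell membrane or between compartments, without using ATP directly. In insects the main blood sugar is trehalose, which is built from glucose in the fat body and moved by facilitated transporters of the same sugar porter superfamily as the glucose transporters. Other families load amino acids in the gut, take up transmitters at synapses, carry nucleotide sugars into the Golgi and exchange metabolites across the inner mitochondrial membrane.

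Unique reads in genes ran from 3.09 megareads in the adult library to 3.67 megareads in the pupal, and transporter genes took 1.33% of the embryo reads, 1.30% of the larval, 1.20% of the pupal and 1.51% of the adult reads. The median number of reads of a listed transporter gene ran from 30 in embryos through 40 in larvae and 34 in pupae to 43.5 in adults. Because each stage is a single library, nothing here can be checked against replicates, the spread between animals is not known, and no p-value is given. Levels are in RPKM, reads scaled to the coding length of the gene model and to all reads counted in genes, and 4 values in a row follow the order embryo, larva, pupa, adult. A ratio is a ratio of RPKM with its exact 95% interval, which covers counting error only. In whole bodies, fewer cells of a type and less RNA per cell cannot be told apart.

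The annotation of the set is uneven. For 342 of the 489 genes every KEGG term named a transport function and the best carrier hit had an e-value of at most 1e-20; they are called genes annotated as carriers alone. The other 147 had a weaker hit, in 85 genes, or also a term without a transport word, in 97. A protein description beyond "hypothetical protein" was lacking for 314 genes. The solute carrier family 25 (SLC25) group was the largest with 95 genes, of which 47 were annotated as carriers alone, and SLC46 had 34 genes, of which 4 were. By contrast, all 36 genes of the trehalose transporter group and 24 of 25 SLC2 genes were annotated as carriers alone. Families are named after the human solute carrier numbering in the KEGG terms, so substrates of the beetle proteins are inferred from homology.

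At least 1 RPKM in at least 1 library was reached by 428 of the 489 genes, and the other 61 stayed below it in every library. At least 5 RPKM was reached by 330, and at least 100 RPKM by 28. The larval and adult libraries held more transporter genes at 1 RPKM or above (344 and 396) than the embryo and pupal libraries (289 and 325). Among the 330 genes with at least 5 RPKM, 73 stayed within 2-fold over all libraries on the log2(RPKM + 1) scale, 22.1% beside 26.6% of all 11621 genes with that level. The adult library held the highest level of 108 of the 330 genes, the embryo library of 103, the larval of 75 and the pupal of 44. As shares these were 32.7%, 31.2%, 22.7% and 13.3%, where 23.7%, 43.2%, 15.7% and 17.4% of all genes peaked in the adult, embryo, larval and pupal library. Under median-ratio rescaling the larval library held the most peaks, 126 of 337 genes, and the embryo library 59. The peaks of all genes were not counted on that scale, so this shift cannot be set against them.

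A gene was compared between consecutive libraries when it had at least 1 RPKM in either, and a difference of 2-fold or more made it higher or lower, on the log2(RPKM + 1) scale. This scale understates differences of weakly expressed genes. From embryo to larva, 117 of 373 transporter genes were higher (31.4%) and 89 lower (23.9%), beside 18.6% and 34.2% of all genes. From larva to pupa, 62 of 383 were higher (16.2%) and 95 lower (24.8%), beside 22.7% and 14.2% of all genes. From pupa to adult, 143 of 407 were higher (35.1%) and 32 lower (7.86%), beside 22.8% and 15.6% of all genes. Counts of families and gene lists below stand against the same all-gene shares.

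The median log2 difference of all genes was itself off 0, at -0.62, 0.43 and -0.09 for the 3 steps, and the transporter medians differed from it by 0.54, -0.37 and 0.55. Rescaling the libraries by median ratios brought the median of all genes to -0.01, -0.004 and 0.12. The transporter medians then differed from it by 0.56, -0.37 and 0.54. Of the transporter genes called at the first step 56.8% were higher as deposited and 77.4% after that rescaling, and at the second step 39.5% and 24.6%. All genes shifted the same way. At the first step 18.6% were higher and 34.2% lower as deposited, and 24.6% and 16.8% after that rescaling. At the second step the all-gene shares were 22.7% and 14.2% as deposited, and 13.9% and 18.5% after it. When the sugar porters described next were left out, 80 of 326 genes were higher and 86 lower from embryo to larva, 55 of 332 were higher and 66 lower from larva to pupa, and 119 of 356 were higher and 31 lower from pupa to adult.

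**Figure D1:**
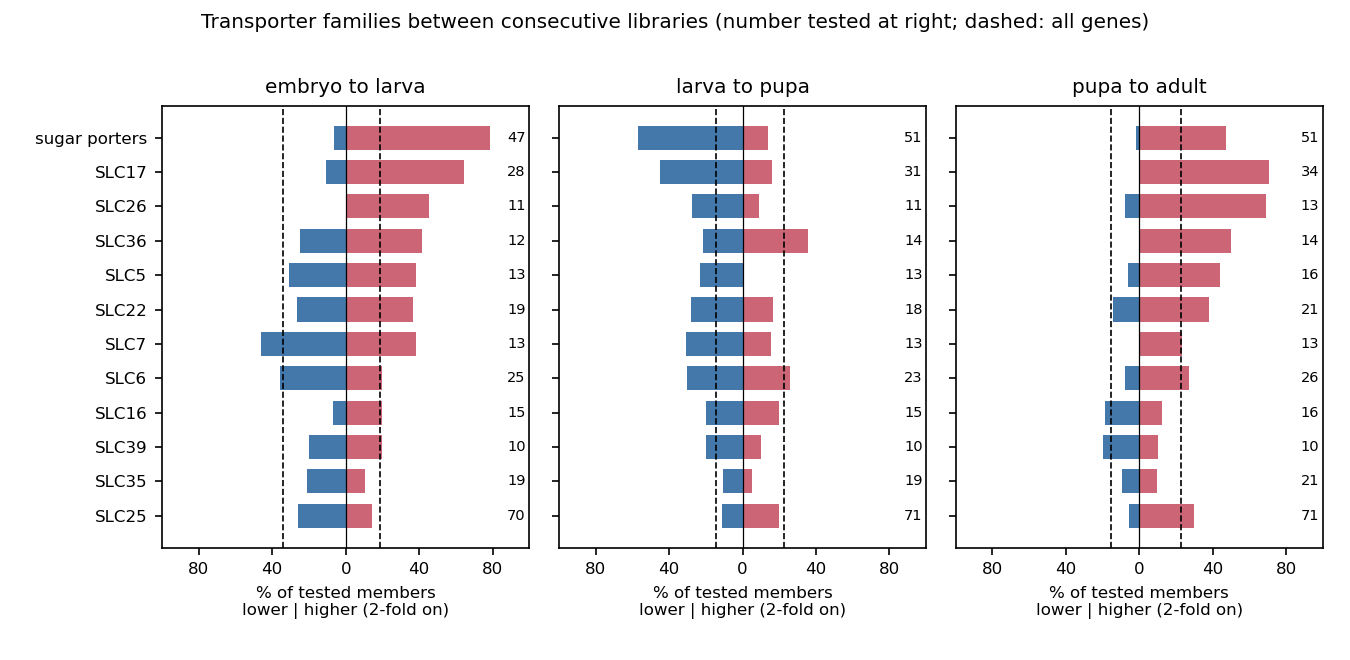
Share of tested members counted as higher (right, red) or lower (left, blue) by 2-fold or more at each step, for the sugar porters and 11 solute carrier (SLC) families, with the number of genes tested at the right and dashed lines at the shares of all genes. The shares of sugar porters lie beyond those of all genes, higher into the larva, lower into the pupa and higher into the adult. So do those of SLC17, SLC26, SLC36, SLC5, SLC22, SLC7 and SLC6, narrowly for SLC6 into the larva and SLC7 into the adult. Some of these families also lie beyond the opposite line. Into the larva 6 of 13 SLC7 and 9 of 25 SLC6 genes are lower. Into the pupa 5 of 14 SLC36 and 6 of 23 SLC6 genes are higher. SLC35 stays inside both lines at the 3 steps.

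The sugar porters were 61 genes: 25 whose KEGG field named SLC2, the facilitated glucose transporter family, and 36 whose field named the facilitated trehalose transporter and no SLC2 term. Background knowledge places both in the same superfamily, so the split follows the terms and not a measured substrate. They were few in the embryo library, where 17 of 61 reached 1 RPKM, and more in the larval with 46, the pupal with 31 and the adult with 51. No read was found for 22 of them in embryos, 8 in larvae, 13 in pupae and 3 in adults. At the median model length, 3 reads correspond to 0.659, 0.597, 0.582 and 0.692 RPKM, which is the level a count of 0 still allows. From embryo to larva 37 of 47 sugar porters were higher and 3 lower, from larva to pupa 7 of 51 were higher and 29 lower, and from pupa to adult 24 of 51 were higher and 1 lower. The all-gene shares were 18.6% and 34.2%, 22.7% and 14.2%, and 22.8% and 15.6%.

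The 36 trehalose transporter genes carried most of the larval difference in the summed level of the sugar porters. Their summed level was 62.7, 412, 177 and 223 RPKM, whereas the sum of the 25 SLC2 genes was 267, 273, 296 and 384 RPKM. The SLC2 sum was nearly level into the larva although 11 of 17 tested SLC2 genes were higher and 2 lower. The median log2 difference of SLC2 at that step was 1.46. From embryo to larva 26 of 30 tested trehalose transporter genes were higher and 1 lower, with a median log2 difference of 1.99. From larva to pupa 0 of 30 were higher and 21 lower, with a median of -1.44, and from pupa to adult 12 of 28 were higher and 1 lower, with a median of 0.87. The larval library held the highest level of 15 of the 23 genes with at least 5 RPKM, the adult library of 6, the pupal of 2 and the embryo library of 0. Of all genes 15.7%, 23.7%, 17.4% and 43.2% peaked in these libraries. Under median-ratio rescaling, with each library's top 20 genes taken out of its total, and in TPM, the genes higher into the larva numbered 30, 30 and 28, and 0 were higher into the pupa in each.

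TC004741, the most abundant gene of the group, with a hit to the trehalose transporter term at an e-value of 0, stood at 7.62, 55.2, 25.1 and 22 RPKM. It was 7.24-fold (5.28 to 10.1) higher in the larval than in the embryo library and 2.2-fold (1.82 to 2.66) lower in the pupal than in the larval library, while the pupal and adult levels differed by less than 2-fold. TC014877, described as similar to a sugar transporter, stood at 1.52, 45.6, 16.1 and 30.2 RPKM and was 29.9-fold (15 to 70.1) higher in the larva than in the embryo. It was the leading member of the group in the adult library, with 13.6% of the group's summed adult level.

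Several trehalose transporter genes were nearly confined to larva and adult, the stages that feed. TC009681 stood at 0.439, 35.8, 0.388 and 12.9 RPKM, 92.4-fold (25.2 to 769) lower in the pupal than in the larval library and 33.3-fold (8.8 to 282) higher in the adult than in the pupal library, with 2 reads each in embryo and pupa. TC012230 had 0.225, 13.7, 0 and 4.5 RPKM, with 1 embryo read and 0 pupal reads, so that its pupal level was at least 22.9-fold lower than the larval. TC012566 followed the same order with 0.219, 13.7, 0.387 and 4.38 RPKM. In these 3 genes the larval level was the highest, the adult level second and the embryo and pupal levels under 1 RPKM.

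Other members kept their transcript in the pupa. TC003288 stood at 10.3, 28.9, 38.1 and 10.2 RPKM and had its highest level in the pupal library, 3.73-fold (2.69 to 5.28) above the adult level. TC003289 stood at 10.4, 22.7, 25.7 and 15.1 RPKM, with larval and pupal levels that overlapped within counting error at a ratio of 1.14-fold (0.895 to 1.44). TC006668, with 0 embryo reads, stood at 0, 13.8, 10 and 10.1 RPKM and was at least 21.2-fold higher in the larva than in the embryo. In RefSeq's gene order TC003288 lies next to TC003287, which stood at 2.24, 4.48, 7.33 and 7.55 RPKM, with its 2 higher levels in pupa and adult, where TC003288 had its lowest level in the adult.

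TC012830, described as similar to the same Drosophila sugar transporter as the SLC2 gene TC003228, peaked in the larva at 8.02, 36.8, 13.6 and 7.5 RPKM, 4.59-fold (3.19 to 6.75) above the embryo level. TC015809 was present in every library with 10.8, 26.9, 20.5 and 14.8 RPKM, and its larval and pupal levels differed by less than 2-fold. Weaker members with 0 embryo reads were TC008119 at 0, 9.54, 2.53 and 5.78 RPKM and TC007235 at 0, 5.81, 0.195 and 3.95 RPKM, which had 1 pupal read. Both followed the order of the feeding stages, larva above adult above pupa.

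Neighbouring genes differed even where their annotation was the same. TC012232 stood at 0.224, 4.07, 0.198 and 8.49 RPKM, highest in the adult. TC012233, next to it in RefSeq's gene order, had reads in the larval library alone and stood at 0, 0.861, 0 and 0 RPKM, and TC012234 beyond it at 0, 1.43, 0 and 1.42 RPKM. The last pair stayed near the level that 0 reads allow, so no order of libraries is read from them.

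Of the trehalose transporter genes, TC014873 and TC012227 were restricted to the larval library. A gene was called restricted to a library when it had at least 5 RPKM there and its RPKM + 1 was at least 4 times that of every other library. TC014873 stood at 0.2, 30.7, 2.83 and 1.68 RPKM, a larval level 10.8-fold (6.49 to 19.4) above the pupal. It lies beside the SLC2 gene TC014872 in RefSeq's gene order, and that neighbour stood at 0.792, 14.5, 6.47 and 15.2 RPKM, with larval and adult levels that differed by less than 2-fold. TC012227 was weak, at 0, 5.37, 0.201 and 0 RPKM, and its larval level rested on 26 reads.

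**Figure D2:**
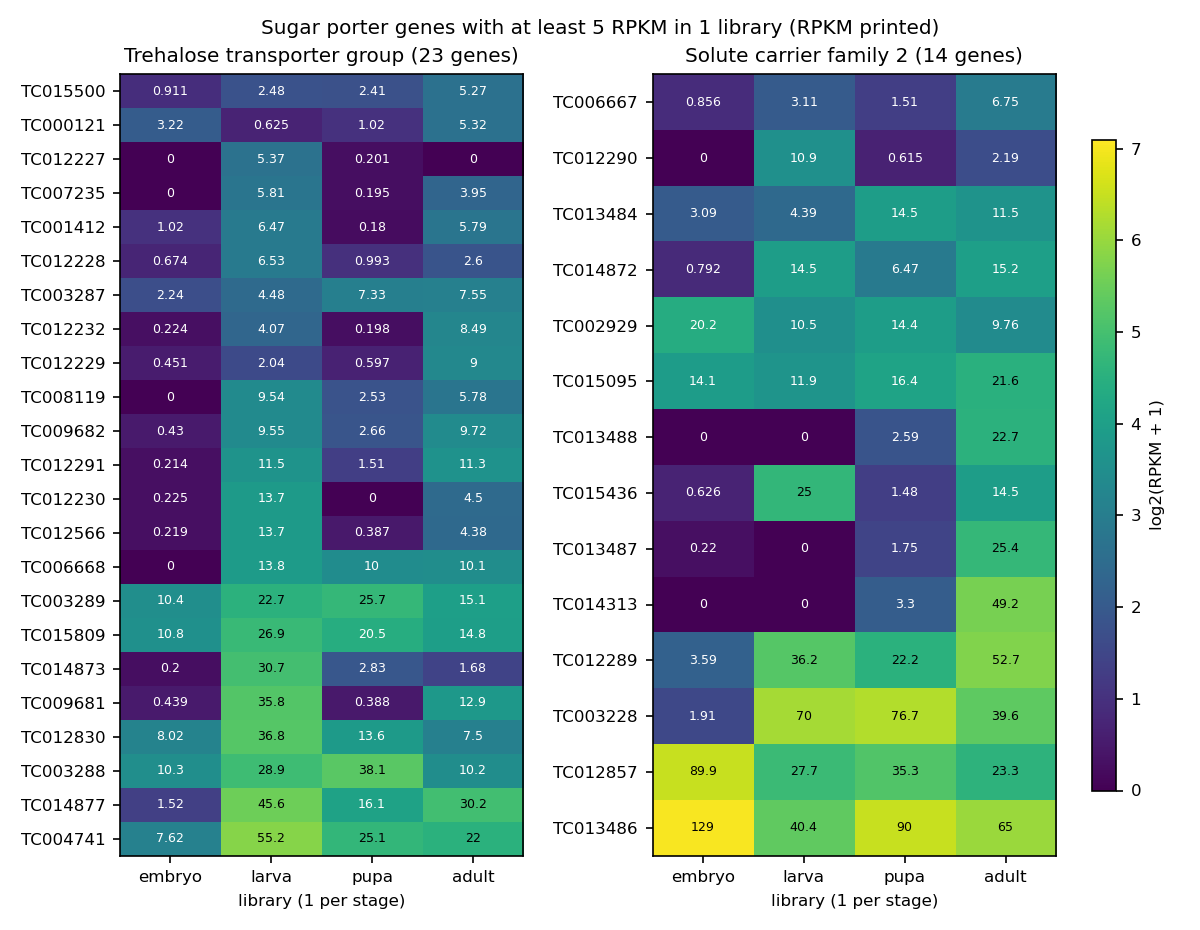
RPKM (printed) and log2(RPKM + 1) (colour) of the 37 sugar porter genes with at least 5 RPKM in 1 library, by library, with the trehalose transporter group on the left and SLC2 on the right, ordered by highest level. Most trehalose transporter genes are dark in the embryo column and brightest in the larval column, while the 2 leading SLC2 genes, TC013486 and TC012857, are brightest in the embryo column.

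SLC2 members took different directions. From larva to pupa 7 of 21 SLC2 genes were higher and 8 lower, and from pupa to adult 12 of 23 were higher and 0 lower. TC013486, a homologue of the glucose transporter member 1 type, was the most abundant sugar porter in the embryo, pupal and adult libraries with 129, 40.4, 90.03 and 65 RPKM. It was 3.2-fold (2.74 to 3.75) lower in the larval than in the embryo library and 2.23-fold (1.89 to 2.62) higher in the pupal than in the larval library; the latter difference fell under 2-fold on the log2(RPKM + 1) scale, at 0.69, under median-ratio rescaling. TC012857, of the same member type, stood at 89.9, 27.7, 35.3 and 23.3 RPKM and was 3.24-fold (2.69 to 3.92) lower in the larva than in the embryo. These 2 genes made up most of the embryo sum of the family, TC013486 alone 48.4% of it.

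TC003228, a homologue of the member 8 type and described as similar to a Drosophila sugar transporter, went the other way with 1.91, 70.04, 76.7 and 39.6 RPKM. It was the most abundant sugar porter of the larval library, 36.6-fold (19.1 to 80.7) above the embryo level, and its pupal level was as high within counting error, at a ratio of 1.09-fold (0.948 to 1.26). TC012289 stood at 3.59, 36.2, 22.2 and 52.7 RPKM and was highest in the adult library, 2.37-fold (1.89 to 2.98) above the pupal level. TC015436 was a feeding-stage gene of this family with 0.626, 25, 1.48 and 14.5 RPKM, 16.9-fold (8.35 to 40.1) lower in pupa than in larva.

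TC012290 and TC012291 lie next to TC012289 in RefSeq's gene order, the former placed in SLC2 and the latter in the trehalose transporter group. TC012290 was a larval gene with 0, 10.9, 0.615 and 2.19 RPKM, its larval level at least 15.7-fold above the embryo level. TC012291 stood at 0.214, 11.5, 1.51 and 11.3 RPKM, with larval and adult levels that differed by less than 2-fold and 1 embryo read. The 3 neighbours shared a low embryo level and differed in the adult.

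Of the remaining SLC2 genes that reached 20 RPKM, TC015095 stood at 14.1, 11.9, 16.4 and 21.6 RPKM and TC002929 at 20.2, 10.5, 14.4 and 9.76 RPKM. TC002929 was highest in the embryo and TC015095 in the adult library. TC006667 and TC006666, the neighbours of the trehalose transporter gene TC006668, were weak, at 0.856, 3.11, 1.51 and 6.75 RPKM and 0.226, 0.205, 0.199 and 1.42 RPKM.

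A trio of SLC2 genes was restricted to the adult library. TC014313 stood at 0, 0, 3.3 and 49.2 RPKM, 14.9-fold (9.1 to 26.1) higher in the adult than in the pupal library. TC013487 stood at 0.22, 0, 1.75 and 25.4 RPKM, 14.5-fold (7.39 to 32.7) higher, and TC013488 at 0, 0, 2.59 and 22.7 RPKM, 8.77-fold (6.15 to 12.9) higher. TC014313 and TC013487 have models of the same length, 1404 bases, and are neighbours in RefSeq's gene order; whether they are near-identical copies cannot be read from the files. The authors counted unique reads, so genes with a near-identical copy can be undercounted.

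For TC013486 and for TC011679, an SLC50 gene of the SWEET type of sugar carrier and the other of the 2 most abundant sugar transporter genes, the 3 most alike profiles among the 330 genes were looked up by Pearson's r over the 4 libraries. TC013486 was most like TC009330, a sodium/calcium exchanger, with r = 0.994, then TC013255 of SLC22 with 0.987 and TC015028, a mitochondrial phosphate carrier, with 0.986. TC011679 stood at 60.1, 92.8, 45 and 124 RPKM and was most like TC001165 of SLC45 with r = 0.968, then the trehalose transporter gene TC012232 with 0.967 and TC004406 of SLC36 with 0.965. These values rest on 4 points each and only describe the order of the libraries. The other SLC50 gene, TC030574, described as similar to the Drosophila gene saliva and named after its values were seen, stood at 49.5, 25.3, 46.6 and 21.7 RPKM.

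Genes that supply sugar moved in part alongside. The 6 genes of trehalose synthesis and breakdown summed to 46.2, 378, 148 and 177 RPKM, the same order of libraries as the trehalose transporter genes, and 4 of 6 were higher and 0 lower into the larva, 1 higher and 2 lower into the pupa, and 4 higher and 1 lower into the adult. Trehalose 6-phosphate synthase/phosphatase (TC007883), which makes trehalose, stood at 24.2, 184, 116 and 64.2 RPKM. The trehalase TC006698, which splits it, stood at 3.71, 149, 1.15 and 17.5 RPKM. The 35 genes of starch and maltose digestion, amylases and glucosidases, summed to 109, 1828, 105 and 88.0 RPKM, with 17 of 23 higher and 3 lower into the larva, and 15 of 21 lower and 1 higher into the pupa. The 11 genes of glycogen and the first steps of sugar use summed to 425, 541, 434 and 862 RPKM. The hexokinase TC000319, at 88.1, 156, 80.5 and 312 RPKM, led them in larva and adult. In embryo and pupa the glycogenin glucosyltransferase TC004671 led, at 143, 118, 118 and 224 RPKM.

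Markers of the midgut moved with the sugar porters. Of 86 genes for digestive enzymes and peritrophic matrix proteins, which line the gut, 59 of 68 were higher and 5 lower from embryo to larva, 2 of 65 were higher and 55 lower from larva to pupa, and 36 of 56 were higher and 4 lower from pupa to adult. Their summed levels were 474, 12385, 886 and 1179 RPKM. The names that define this list include alpha-amylase and maltase, which also define the starch and maltose list, so these lists are not independent. The 9 fat body markers summed to 267, 52926, 2197 and 98.4 RPKM. The part of these tissues in the levels of the sugar porters was not tested.

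Amino acid and peptide carriers were 75 genes in 8 families. From embryo to larva 17 of 65 were higher and 25 lower, beside 18.6% and 34.2% of all genes. From larva to pupa 15 of 65 were higher and 16 lower, beside 22.7% and 14.2%. From pupa to adult 21 of 70 were higher and 4 lower, beside 22.8% and 15.6%. The SLC7 family of cationic and large neutral amino acid exchangers held 13 genes. Of the 11 with at least 5 RPKM, 8 peaked in the embryo library, where 43.2% of all genes peaked. TC011826 stood at 54.6, 16.3, 8.01 and 10.9 RPKM and was 3.36-fold (2.61 to 4.36) lower in larva than in embryo. TC014779, a cationic amino acid transporter homologue, stood at 28.2, 2.64, 6.47 and 9.17 RPKM, 10.7-fold (6.95 to 17.2) lower in larva than in embryo.

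Within the same family, TC001934 ran opposite with 0.236, 23.9, 7.49 and 12.1 RPKM, from 1 embryo read to 112 larval reads. TC001941, of the same cationic type, also peaked in the larva with 14.7, 35, 16.9 and 14.5 RPKM, 2.38-fold (1.94 to 2.93) above the embryo level. The family therefore split by gene: 5 of 13 were higher and 6 lower into the larva. Under median-ratio rescaling 5 were higher and 3 lower.

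Large neutral amino acid transporter homologues of the family had their lowest levels in different libraries. TC013142 stood at 39, 14, 30.00 and 33.5 RPKM, lowest in the larva, and TC000687 at 20.8, 11.5, 12.9 and 8.31 RPKM, lowest in the adult. TC009845, the most abundant gene of SLC3, whose proteins are the heavy chains that escort SLC7 exchangers to the membrane, stood at 157, 71, 94.4 and 91.7 RPKM. The summed level of the 13 SLC7 genes was 216, 137, 114 and 129 RPKM.

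Homologues of transmitter transporters were among the genes with the steepest decrease from embryo to larva. TC009185, the homologue of the vesicular GABA and glycine transporter SLC32, stood at 22.5, 1.09, 2.47 and 3.98 RPKM and was 20.8-fold (9.25 to 57.8) lower in larva than in embryo. TC003133, of the SLC6 amino acid and orphan type, stood at 20.6, 1.93, 1.88 and 2.09 RPKM, 10.7-fold (6.25 to 19.5) lower. Both were restricted to the embryo library, which held 3 such genes in all (0.909% of 330, beside 2.28% of all genes). Under median-ratio rescaling 1 gene was restricted to it, and 0 were at a margin of 8.

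TC013646, an SLC6 gene of the GABA transporter type, stood at 18.6, 1.19, 8.42 and 9.68 RPKM, 15.6-fold (7.64 to 36.9) lower in larva than in embryo. The vesicular monoamine transporter homologue TC004499 (SLC18) stood at 42.3, 4.41, 8.03 and 26.7 RPKM and the vesicular acetylcholine transporter homologue TC000945 at 24, 1.75, 4.64 and 10.6 RPKM, 9.59-fold (6.21 to 15.5) and 13.7-fold (7.95 to 25.6) lower in the larva. TC008459, matched to the vesicular glutamate members of SLC17, stood at 41.7, 3.55, 6.16 and 11.1 RPKM and was 11.7-fold (7.65 to 18.9) lower. Of 45 neuron markers 25 of 40 were lower and 1 higher from embryo to larva, beside 34.2% and 18.6% of all genes. The markers had summed levels of 2315, 869, 1359.8 and 1080.3 RPKM, and their part in the levels of the transmitter genes was not tested.

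TC015882, another homologue of the GABA transporter type, was restricted to the larval library. It stood at 1.44, 102, 15.6 and 7.58 RPKM, 70.8-fold (35.7 to 165) above the embryo level and 6.54-fold (5.28 to 8.18) above the pupal. It had the highest level of the 18 SLC6 genes annotated as carriers alone. The SLC6 group as a whole was led by TC000014, at 279.8, 208, 234 and 87.9 RPKM, which also carries the term of an ankyrin repeat subunit of a protein phosphatase, so that its annotation does not tell whether it is a carrier.

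The proton-coupled amino acid transporter family SLC36 had the largest pupa-to-adult difference in summed level of the amino acid families, at 185, 281, 295 and 943 RPKM. Most of that adult sum came from genes with weak carrier hits. TC006976 stood at 1.42, 0.161, 26.8 and 344 RPKM, with an e-value of 2e-06, and TC002773 at 0.721, 0.327, 12.1 and 183 RPKM, with 5e-07; both were restricted to the adult library. Over the 11 SLC36 genes annotated as carriers alone the sums were 182, 281, 251 and 364 RPKM.

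Of those 11 genes, 4 of 10 tested were higher and 0 lower from pupa to adult. TC006939 stood at 0, 0.799, 4.67 and 38.3 RPKM, 8.2-fold (4.98 to 14.3) higher in the adult than in the pupa. TC002389, with an e-value of 1e-145, had a different profile of 0.216, 46.1, 41.5 and 30.5 RPKM, from 1 embryo read to 235 larval reads, and kept its level in the pupa. Its neighbour in RefSeq's gene order, TC002388 of the same family, stood at 22.1, 24.6, 13.2 and 27.3 RPKM, and was present in every library.

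The oligopeptide transporter homologue TC003456 (SLC15) was restricted to the adult library at 0, 0.221, 5.16 and 68.6 RPKM, 13.3-fold (8.74 to 21.1) above the pupal level. TC003794, a glutamate transporter homologue of SLC1, was a feeding-stage gene with 2.78, 25.6, 1.7 and 19.3 RPKM: 9.21-fold (5.2 to 17.8) higher in larva than in embryo, 15.1-fold (7.7 to 33.7) lower in pupa than in larva and 11.4-fold (5.72 to 25.7) higher in adult than in pupa. TC003653 of SLC38, a neutral amino acid carrier homologue, was present throughout at 89.3, 43.5, 83.7 and 81.9 RPKM.

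Other members of these families had other profiles. TC015432 of SLC38 stood at 20.4, 1.56, 2.47 and 4.52 RPKM, 13.1-fold (6.38 to 31.2) lower in larva than in embryo, and at a margin of 3.88 lay just outside the rule for embryo-restricted genes. TC000366, an SLC6 gene of the invertebrate type, stood at 27.3, 9.36, 45.1 and 17.1 RPKM and was 4.82-fold (4.01 to 5.83) higher in pupa than in larva. TC008606, the most abundant glutamate transporter homologue of SLC1, stood at 18.3, 32.5, 20.5 and 36.8 RPKM, highest in the adult, with differences under 2-fold between consecutive libraries.

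Carriers of monocarboxylates and other organic ions were 110 genes. SLC17, a family that takes organic anions and phosphate and includes the vesicular glutamate transporters, held 41 of them and summed to 209, 303, 263 and 611 RPKM. From embryo to larva 18 of 28 were higher and 3 lower, from larva to pupa 5 of 31 were higher and 14 lower, and from pupa to adult 24 of 34 were higher and 0 lower. With genes annotated as carriers alone the last count was 20 of 29, and it was 24 of 34 under the median-ratio and top-20 scalings. The adult library held the highest level of 14 of the 27 genes with at least 5 RPKM, beside 23.7% of all genes.

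Of the SLC17 genes, 8 were restricted to the adult library and 0 to any other. TC005711 stood at 0.408, 1.11, 10.1 and 88.3 RPKM and was 8.76-fold (5.88 to 13.5) higher in the adult than in the pupa. TC005710, with 0 reads in embryo and larva, stood at 0, 0, 4.1 and 33.1 RPKM, and TC005712 at 0, 0, 1.6 and 21.8 RPKM. TC008413 had 1 read each in larva and pupa and stood at 0, 0.209, 0.204 and 24.5 RPKM, so that its pupa-to-adult ratio of 120.2-fold (21.1 to 4794) is loosely bounded.

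The larval side of the family was made of other genes. TC005436 stood at 1.09, 13.7, 0.193 and 2.99 RPKM, 12.5-fold (5.11 to 39.8) above the embryo level with 1 pupal read, and TC005440 at 0, 12, 1.02 and 4.87 RPKM, at least 17.2-fold above the embryo. The most abundant SLC17 gene, TC015307, was present throughout at 67.3, 68, 120.1 and 93.7 RPKM and was highest in the pupa, 1.77-fold (1.59 to 1.96) above the larva, a difference under 2-fold.

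Of the remaining adult-restricted SLC17 genes, TC005713 stood at 0, 2.36, 2.09 and 20.9 RPKM and TC005982 at 5.87, 2.05, 3.79 and 31.6 RPKM, the latter also present in the embryo. TC005807, which has an opsin term beside the carrier term, stood at 0, 0.296, 4.47 and 42.6 RPKM, and TC005809, with an e-value of 2e-07, at 0, 0, 0.95 and 32.2 RPKM. The levels of these last 2 cannot be assigned to a carrier from the annotation.

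The sodium-coupled SLC5 gene TC013040 had the largest embryo-to-larva ratio among members with 10 or more embryo reads. It stood at 0.597, 175, 1.17 and 11.2 RPKM, 294-fold (175 to 538) higher in larva than in embryo and 150.4-fold (106 to 222) lower in pupa than in larva. The larval sum of its family was 374 RPKM, beside 257, 177 and 196 in embryo, pupa and adult. The model spans 7233 bases, long beside the other members named here, and a joined gene model was not tested for. TC003895 of the same monocarboxylate type stood at 1.13, 37.4, 14.3 and 21.7 RPKM and was 33-fold (15.8 to 83) higher in larva than in embryo.

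Monocarboxylate transporters of SLC16, which carry lactate, pyruvate and related acids, summed to 332, 312, 334 and 318 RPKM as deposited. Under median-ratio rescaling the sums were 268, 393, 306 and 341, with the larva highest instead of lowest. Single genes differed more widely between libraries. TC000991 stood at 31.3, 16.3, 79.4 and 6.91 RPKM, 4.86-fold (4.01 to 5.93) higher in pupa than in larva and 11.5-fold (8.51 to 15.9) lower in adult than in pupa. TC007070 was restricted to the adult library at 0.138, 0.251, 0.122 and 52.5 RPKM, with 1 pupal read and 361 adult reads. TC007068 was restricted to the larval library at 1.8, 34, 6.95 and 7.24 RPKM, 18.9-fold (10.4 to 38.4) above the embryo level, although its carrier hit was weak at 6e-19.

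Other SLC16 genes were present in every library. TC007067 stood at 33.6, 46.3, 54.4 and 42.1 RPKM, TC001278 at 66.2, 45.1, 32.6 and 58.1 RPKM and TC005811 at 44.4, 22.3, 22.8 and 17.5 RPKM. TC001228, of the member 10 type that carries aromatic amino acids in mammals, stood at 22.9, 19.8, 56.5 and 27.3 RPKM and was 2.85-fold (2.26 to 3.62) higher in pupa than in larva and 2.06-fold (1.66 to 2.58) lower in adult than in pupa. TC014622 was highest in the adult at 13.7, 15.9, 14.3 and 29.1 RPKM, 2.03-fold (1.57 to 2.66) above the pupa.

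TC007066, TC007067, TC007068 and TC007070 carry close gene numbers and 4 different profiles. TC007066 had 0 embryo reads and stood at 0, 10.6, 5.83 and 5.09 RPKM, highest in the larva. With TC007067 present in every library, TC007068 restricted to the larva and TC007070 restricted to the adult, genes of one family and close numbers were highest in different libraries.

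Sodium-dependent dicarboxylate transporter homologues of SLC13 supplied 2 further adult genes. TC015326 stood at 0, 0, 6.92 and 100.2 RPKM, 14.5-fold (10.4 to 20.7) higher in adult than in pupa, and TC015404 at 0, 0.187, 2.73 and 53.1 RPKM, 19.4-fold (11.6 to 35.3) higher. In Drosophila the SLC13 gene Indy carries citrate and other acids of the citric acid cycle. Of the organic cation family SLC22, TC000561 was the most abundant and was high in the feeding stages with 2.03, 43.2, 8.05 and 72.6 RPKM, 21.3-fold (11.4 to 45) higher in larva than in embryo and 9.02-fold (6.6 to 12.6) higher in adult than in pupa.

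Among other SLC22 genes, TC010761 was highest in the larva at 2.86, 32.9, 14 and 4.01 RPKM and was 3.49-fold (2.12 to 6) lower in adult than in pupa. TC014673 was highest in the pupa at 4.39, 3.98, 15.8 and 6.74 RPKM, 3.97-fold (2.57 to 6.35) above the larva. TC014155 and TC014156, neighbours in RefSeq's gene order that also carry a chromosome transmission fidelity term, stood at 3.11, 10.2, 33.2 and 23.6 RPKM and 0.421, 7.64, 0.558 and 11.1 RPKM. The former was highest in the pupa and the latter in the adult library.

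Over the 23 SLC22 genes 7 of 19 were higher and 5 lower into the larva, 3 of 18 higher and 5 lower into the pupa, and 8 of 21 higher and 3 lower into the adult. All genes stood at 18.6% and 34.2%, 22.7% and 14.2%, and 22.8% and 15.6%. SLC10, named for sodium/bile acid cotransport in mammals, was led by TC006130 at 52.1, 22.8, 46 and 19.1 RPKM, highest in embryo and pupa. TC013893, placed in SLC18 by a hit of 1e-17 and described as an uncharacterized transporter, stood at 16.5, 80.04, 59.1 and 16.9 RPKM and differed from the transmitter genes of that family by its larval and pupal levels.

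Carriers of inorganic ions and metals were 67 genes. Into the larva 11 of 54 were higher and 15 lower, beside 18.6% and 34.2% of all genes. Into the pupa 5 of 56 were higher and 8 lower, beside 22.7% and 14.2%, and into the adult 20 of 62 were higher and 5 lower, beside 22.8% and 15.6%. Of the 20 genes higher into the adult, 9 were from the sulfate and anion transporter family SLC26, with 9 of 13 higher and 1 lower. TC015236 stood at 2.07, 3.46, 2.39 and 44 RPKM, 18.4-fold (11.3 to 32.1) higher in adult than in pupa. TC013320, a sodium/potassium/calcium exchanger homologue of SLC24, was restricted to the larval library at 0.179, 40.7, 0.475 and 5.47 RPKM, with 1 embryo read and 3 pupal reads. Its relative TC014488 was restricted to the embryo library at 24.1, 4, 4.05 and 4.26 RPKM, 6.04-fold (3.92 to 9.66) lower in larva than in embryo.

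TC000573, a homologue of the sodium/potassium/chloride cotransporter of SLC12, was again higher in the feeding stages, at 0.7, 12.7, 1.86 and 12.3 RPKM. Zinc carriers were steadier: the 9 SLC30 genes summed to 274, 222, 239 and 241 RPKM and the 11 SLC39 genes to 320, 261, 349 and 222 RPKM. TC002942 of SLC39, restricted to the larval library at 0.315, 11.4, 1.39 and 0.994 RPKM, lies between TC002941 and TC002943 in RefSeq's gene order. TC002941 was weak at 0, 4.22, 0.823 and 1.63 RPKM, and TC002943 was lowest in the larva at 27, 8.96, 37.5 and 26.7 RPKM, 3.01-fold (2.05 to 4.51) under the embryo level. The 22 genes of the V-type proton ATPase, whose gradient drives proton-coupled carriers, summed to 2101, 2236, 1540.1 and 2707 RPKM.

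Sodium/hydrogen exchangers of SLC9, which trade protons for sodium, were led by TC002289, of the organellar member 8 type, at 86.8, 137, 97.8 and 112 RPKM. TC009070, of the member 10/11 type known from sperm in mammals, was restricted to the adult library at 0, 0.0933, 1.04 and 7.24 RPKM, and TC009756 of the same type stood at 0, 0.384, 1.49 and 7.11 RPKM. Both had 0 embryo reads. The phosphate transporter homologue TC013897 (SLC20) was highest in the embryo at 35.8, 3.99, 4.93 and 15.7 RPKM, 8.97-fold (5.23 to 16.5) above the larva and 3.19-fold (1.85 to 5.73) higher in adult than in pupa.

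The zinc exporter homologue TC007872 (SLC30 member 1) stood at 104, 73, 61.5 and 88.3 RPKM and the zinc importer homologue TC009026 (SLC39) at 52.5, 54, 88.2 and 36.3 RPKM, the latter 2.43-fold (1.94 to 3.05) lower in adult than in pupa. TC004740, an SLC30 gene that also has a glycoprotein glucosyltransferase term, was highest in the larva at 6.9, 45.8, 12.5 and 11.8 RPKM, 6.64-fold (4.09 to 11.4) above the embryo and 3.66-fold (2.55 to 5.36) above the pupa. The copper importer homologue TC004460, the single SLC31 gene, was nearly level at 57.9, 70.02, 70.5 and 71.3 RPKM. TC001752 of SLC12, a cation-chloride cotransporter homologue, led its family at 90.9, 70.9, 63.4 and 44.6 RPKM, and TC009330 of SLC8, the sodium/calcium exchanger, stood at 15, 3.54, 9.05 and 7.18 RPKM.

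Adult-restricted SLC26 genes beside TC015236 were TC006634 at 0, 0.549, 2.5 and 24.2 RPKM and TC005488 at 0, 0, 0.258 and 5.52 RPKM, the latter with 1 pupal read. TC005151, with a weak hit of 3e-08, was highest in the pupa at 2.07, 21.2, 37.1 and 3.48 RPKM. SLC26 summed to 47.1, 106, 88.7 and 191 RPKM over 15 genes, and the adult sum was the highest in the other 3 scalings as well.

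Mitochondrial carriers of SLC25 had the highest summed level of the families, 3068, 2391, 2202 and 3965 RPKM. Of its 54 genes with at least 5 RPKM, 20 (37.0%) stayed within 2-fold over all libraries, beside 26.6% of all genes. From embryo to larva 10 of 70 were higher and 18 lower, from larva to pupa 14 of 71 and 8, and from pupa to adult 21 of 71 and 4. All genes stood at 18.6% and 34.2%, 22.7% and 14.2%, and 22.8% and 15.6% at these steps. Over the 47 genes annotated as carriers alone, 7 of 43 were higher and 5 lower into the larva, 5 of 44 higher and 7 lower into the pupa, and 14 of 44 higher and 1 lower into the adult. The median log2 difference into the larva over all SLC25 genes was -0.40 as deposited and 0.23 under median-ratio rescaling.

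The adenine nucleotide translocase homologues, which exchange ADP for ATP across the inner mitochondrial membrane, led the family. TC002415 stood at 1089, 737, 638 and 846 RPKM. TC000102 stood at 68.5, 231, 70.5 and 1115 RPKM, 15.8-fold (13.8 to 18.1) higher in the adult than in the pupal library. Of the reads of the pair, TC000102 took 5.94% (Wilson 95% interval 5.19 to 6.79) in the embryo, 23.9% (22.4 to 25.4) in the larva, 9.97% (8.82 to 11.3) in the pupa and 56.9% (55.6 to 58.2) in the adult library.

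TC000102 was thereby the most abundant transporter gene of the adult library and TC002415 of the other 3 libraries. The 2 genes have models of nearly the same length, 900 and 897 bases, and reads shared between them were not counted. Of 65 muscle markers, 25 of 62 were higher and 1 lower from pupa to adult, beside 22.8% and 15.6% of all genes. The markers had summed levels of 7372, 8853, 7611.5 and 17889.8 RPKM, and their part in the level of TC000102 was not tested. A weaker homologue, TC010013, was also restricted to the adult library at 1.38, 0.628, 3.97 and 18.9 RPKM.

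**Figure D3:**
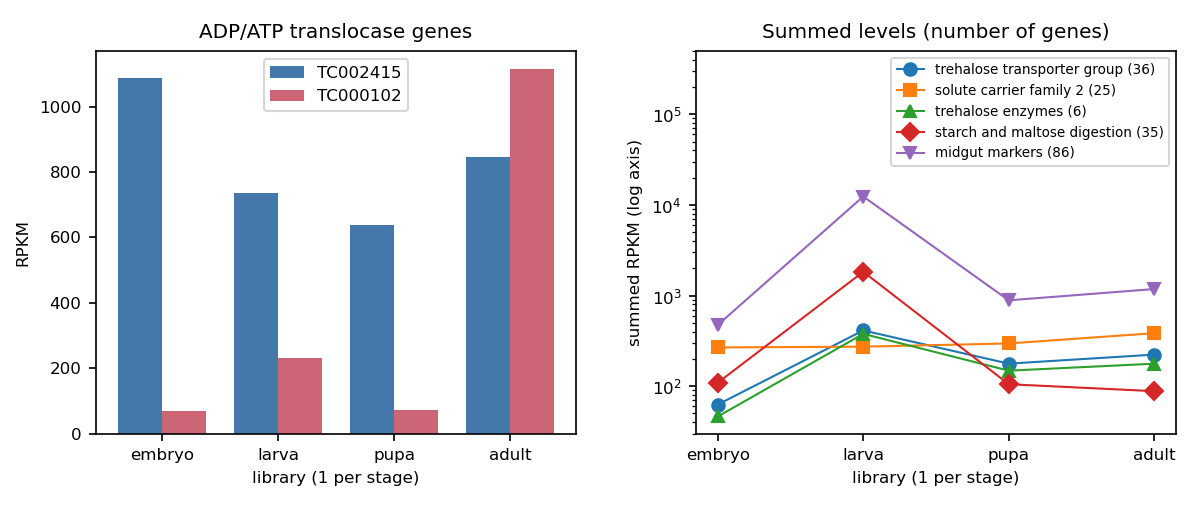
Left, RPKM of the 2 leading ADP/ATP translocase genes in each library: TC002415 stands between 638 and 1089 RPKM, and TC000102 is above it only in the adult library, at 1115 RPKM. Right, summed RPKM on a log axis for the trehalose transporter group, SLC2, the enzymes of trehalose and of starch digestion and the midgut markers. The larval sum is the highest for each of them but SLC2. The starch digestion and midgut lists share defining names and are not independent.

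Neighbouring dicarboxylate carrier genes differed in level and were both highest in the adult library. TC005615 stood at 19, 41.9, 27.5 and 68.9 RPKM and TC005616, beside it in RefSeq's gene order, at 0, 0.324, 2.84 and 25.9 RPKM, restricted to the adult library. TC009611, of another SLC25 type, was restricted to the adult library too, at 1.06, 1.28, 0.311 and 17 RPKM, with 1 pupal read. Not every abundant gene of the SLC25 group is a carrier by its description: TC005486, similar to a 60S ribosomal protein, stood at 191, 115, 101 and 244 RPKM. TC014005, which also has a troponin C term, stood at 225, 92.1, 146 and 79.4 RPKM, and that term does not tell whether it is a carrier.

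Nucleotide sugar carriers of the Golgi and endoplasmic reticulum, SLC35, were the flattest of the families with at least 10 genes at 5 RPKM, with 10 of 18 genes (55.6%) within 2-fold over the libraries. The embryo library held the highest level of 13 of the 18 genes as deposited, beside 43.2% of all genes. It held that of 9 with the top genes left out of the totals and of 6 after median-ratio rescaling. The order of the libraries therefore depends on scale. TC013738, a UDP-galactose transporter homologue, stood at 103, 70.3, 89.6 and 52.3 RPKM. TC000767, of the UDP-sugar type, stood at 43.1, 31.5, 53.5 and 15.5 RPKM, 3.45-fold (2.5 to 4.83) lower in adult than in pupa.

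Carriers of nucleosides, vitamins and choline included 2 strongly stage-dependent nucleoside transporter homologues of SLC29. TC012781 was restricted to the adult library at 0.958, 1.19, 10.05 and 91.6 RPKM, 9.12-fold (7.36 to 11.4) above the pupal level, and TC015480 to the larval at 0, 11.2, 0 and 0.498 RPKM, at least 17.8-fold above the pupal. The most abundant SLC29 gene, TC012524, ran opposite to TC012781 with 114, 73.6, 146 and 45.2 RPKM, 3.23-fold (2.77 to 3.79) lower in adult than in pupa. The choline transporter-like gene TC010325 stood at 246, 259, 262 and 124 RPKM, level in the first 3 libraries and 2.12-fold (1.94 to 2.32) lower in the adult. Thiamine transporter homologues of SLC19 were higher in the larva, TC015040 with 1.2, 8.49, 0.212 and 3.03 RPKM and TC003709 with 0, 7.48, 0.442 and 2.1 RPKM.

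Folate transporter homologues of SLC46 were led by TC008800 at 32.8, 35.7, 56 and 19.3 RPKM, 2.91-fold (2.24 to 3.8) lower in adult than in pupa, while TC008783 was highest in the adult at 0.851, 7.53, 2.44 and 18.1 RPKM. TC013521, the most abundant of the fatty acid transporter family SLC27, stood at 101, 106, 117 and 48.9 RPKM. The choline transporter-like gene TC003615, just short of the e-value bound with 4e-20, was restricted to the adult library at 0, 0, 3.06 and 33.5 RPKM. Vitamin, nucleoside and lipid carriers together numbered 50 genes. Into the larva 6 of 30 were higher and 6 lower, beside 18.6% and 34.2% of all genes. Into the pupa 6 of 30 were higher and 6 lower, beside 22.7% and 14.2%, and into the adult 8 of 30 were higher and 6 lower, beside 22.8% and 15.6%.

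The adult library held 33 of the 330 genes as restricted (10%, beside 7.51% of all genes), the larval 8 (2.42%, beside 3.95%) and the pupal 0 (beside 0.568%). Of the 33 adult genes 25 were annotated as carriers alone. Their families were SLC17 with 8 genes, SLC25 and SLC36 with 4 each, SLC2 and SLC26 with 3 each, SLC5 and SLC13 with 2 each, and SLC9, SLC15, SLC16, SLC22, SLC29, SLC30 and SLC44 with 1 each. Adult levels of the 33 ran from 5.52 to 1115 RPKM with a median of 32.2. Just inside the margin of 4 stood TC010013 at 4.00 and just outside TC006633, an SLC17 gene, at 3.80.

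Many of the adult genes had reads in the pupa. All 33 had at least 1 pupal read, while 19 had 0 embryo reads and 12 had 0 larval reads, 9 of them 0 in both. For TC008413, TC007070, TC009611 and TC005488 it was 1 pupal read alone. In 24 of the 33 the pupal RPKM was above the embryo and larval RPKM. The pupal level was 0.233% to 21.0% of the adult level, with a median of 7.86%. The upper end of this range is set by the rule, which asks for an adult RPKM + 1 at least 4 times that of every other library. The same values over all adult-restricted genes were not computed.

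The group held no trehalose transporter gene, and its sugar carriers were the SLC2 trio. TC016127, an adult-restricted gene placed in SLC30 by a weak hit of 8e-14, is described as an axonemal protein. Among 32 genes of sperm and cilia, a list added after the data were seen, 21 of 30 were higher and 2 lower from pupa to adult, beside 22.8% and 15.6% of all genes. From larva to pupa 17 of 24 genes of the list were higher and 0 lower, beside 22.7% and 14.2%. That list summed to 335, 179, 367 and 760 RPKM, and its part in the adult-restricted genes was not tested.

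**Figure D4:**
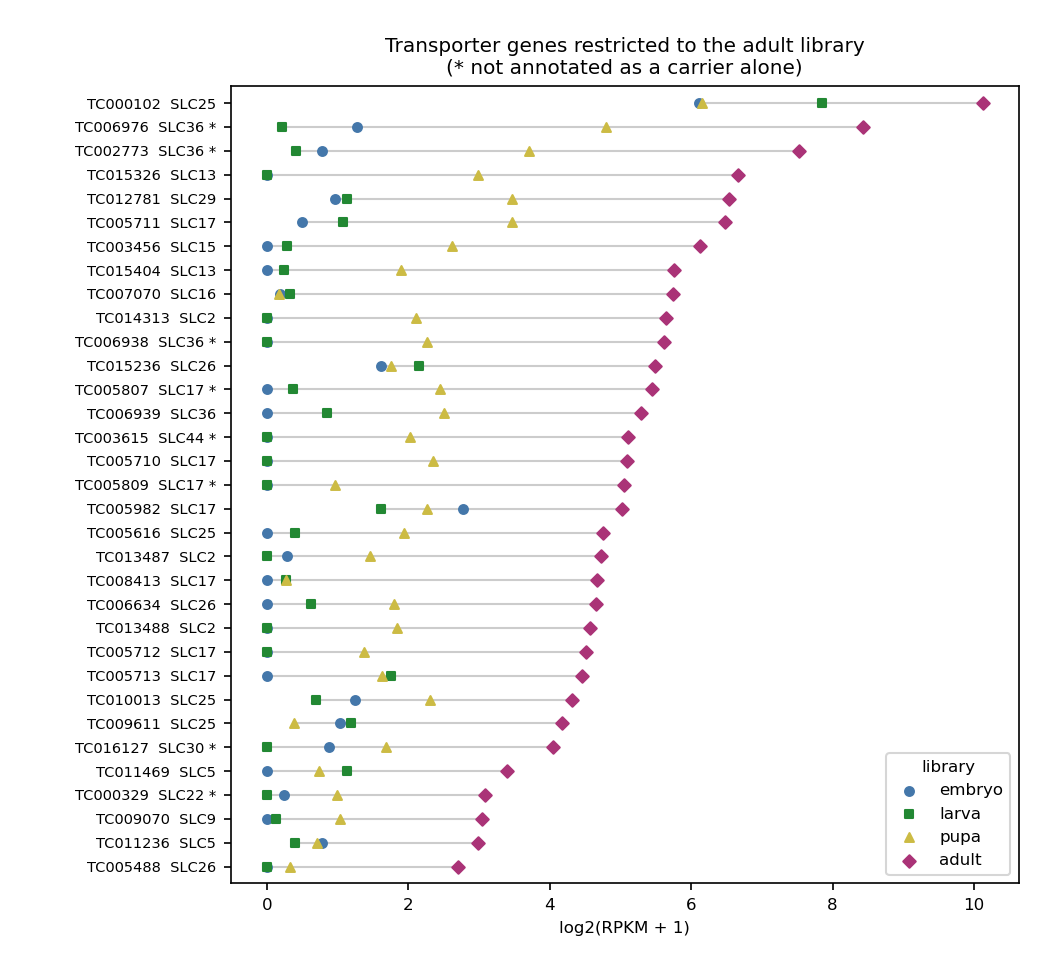
Levels of the 33 transporter genes restricted to the adult library, as log2(RPKM + 1) by library, 1 row per gene with its family, ordered by adult level; an asterisk marks the 8 genes not annotated as carriers alone. By the rule of choice the adult point is rightmost in every row, and the pupal point is the next in 24 rows.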

How the data were processed

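The deposited tables give, per the file headers, the unique read count, the RPKM and the percent coverage of each gene model in each of the 4 RNA libraries; the authors' RPKM was recomputed from count, length and total with a largest relative difference of 5.14e-15. CASAVA 1.8.2, BSMAP 2.73 and SAMtools 0.1.19 are named in the submitters' processing notes; for the RNA data, aligner, counter and genome build were not given in the sources used here, and coordinates and sequences are left out. Library construction per the labels' protocols has no step that marks strand, so overlapping genes cannot be separated. Per the file headers the deposited percent coverage is the part of a model covered by reads, and it was used in no comparison.

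Genes were joined over the 4 libraries, and a gene missing from a library was taken as 0 reads. Differences are log2((RPKM + 1) ratios) between consecutive libraries, over genes with at least 1 RPKM in either. Intervals are exact conditional binomial, with a floor of 3 reads per library where a count was 0. The tables do not mark PCR duplicates, so intervals and floors cover counting error only. Families are the solute carrier number in the KEGG field. RefSeq's gene table (assembly icTriCast1.1) gave the gene order for 125 of 174 members with an accession. The steps were tested on simulated counts.

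Named genes are, per step, the 10 largest differences each way among members with at least 10 RPKM; the most abundant and most variable of each family; genes restricted to 1 library; the 5 most abundant per library; genes at 0 reads in a library and at least 5 RPKM in another; their RefSeq neighbours; trehalose transporter, SLC2, SLC7 and SLC16 genes with at least 20 RPKM; and the 3 profiles most like each of the 2 most abundant sugar transporters. TC030574, TC009845, TC013521, TC004460 and TC004740, and the enzyme and ATP-binding cassette list genes outside the set, were named after their values were seen. Members, families and lists were chosen with earlier results of these data known. Tables were joined in pandas 2.3.3 under Python 3.11.15, intervals came from scipy 1.17.1 with numpy 2.4.6, and plots from matplotlib 3.10.9.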

Additional observations from a re-analysis of the deposited data

How the results depend on the processing

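The alternatives were median-ratio rescaling, the 20 most abundant genes of each library (53 in all) left out of the totals, TPM, a pseudocount of 0.1, a filter of 5 RPKM, a threshold of 4-fold, a 2-fold threshold for the whole counting interval and the choice of members; the set annotated as carriers alone was added after seeing the data. At 4-fold, 67 of 373 genes were higher and 27 lower from embryo to larva, beside 1449 and 1175 of 12179 over all genes. From larva to pupa 15 of 383 were higher and 39 lower, beside 720 and 973 of 12280. From pupa to adult these were 68 and 3 of 407, beside 1491 and 582 of 12713. All-gene counts were not made for the filter of 5 RPKM, the whole interval or restricted genes under the alternatives. With the whole interval beyond 2-fold, 51 were lower from embryo to larva, 27 higher and 62 lower from larva to pupa, and 14 lower from pupa to adult. With members taken from the protein description alone, 18 were higher and 6 lower, 4 and 14, and 14 and 3 at the 3 steps. With the filter of 5 RPKM, 35 were higher from larva to pupa and 94 from pupa to adult. Among genes annotated as carriers alone, 55 were lower from embryo to larva and 40 higher from larva to pupa. Under median-ratio rescaling 44 of 378 were lower from embryo to larva, beside 16.8% of all genes on that scale. With it 59 genes were highest in the embryo and 126 in the larval library. The peaks of all genes were not counted on that scale, and the cause was not tested. The other such counts over all transporter genes stayed within 1.5 times. Of the sugar porters, the filter of 5 RPKM left 23 higher into the larva, 2 higher and 17 lower into the pupa and 14 higher into the adult; at 4-fold these were 20, 1, 12 and 14, from the protein description alone 12, 2, 10 and 10, and with the whole interval beyond 2-fold 3 were higher and 17 lower into the pupa. Embryo-restricted genes numbered 1 under median-ratio rescaling and 0 at a margin of 8. Larva-restricted genes numbered 13 under that rescaling and with the top genes left out, and a margin of 8 left 3 of them and 16 adult-restricted genes. Of 248 called differences of named genes, 20 fell under 2-fold under median-ratio rescaling and 9 with the top genes left out. That 0 reversed carries no weight. Only differences of 2-fold or more entered, and library-wide rescaling or another pseudocount could hardly reverse them. No paired analysis was possible because each stage has 1 library. Depth limits the weak genes: 61 members never reached 1 RPKM, and 3 reads of a sugar porter correspond to 0.582 to 0.692 RPKM.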

Other observations

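Other transporters outside the carrier families were present beside them. The 100 genes matched by name to ATP-binding cassette transporters summed to 1614, 2026, 2211 and 2085 RPKM. From embryo to larva 28 of 74 were higher and 9 lower, beside 18.6% and 34.2% of all genes. From larva to pupa 14 of 78 were higher and 13 lower, beside 22.7% and 14.2%. From pupa to adult 22 of 82 were higher and 12 lower, beside 22.8% and 15.6%. By their descriptions not all of them are transporters. TC010519, similar to a ribonuclease L inhibitor, stood at 249, 207, 210 and 246 RPKM. TC006929, similar to a reverse transcriptase-like protein, stood at 30.7, 98.8, 53.1 and 89.2 RPKM. The 11 sodium pump genes, whose gradient drives sodium-coupled carriers, summed to 785, 428, 738 and 515 RPKM, with the lowest sum in the larval library. Single pump genes were mixed: from embryo to larva 4 of 10 were higher and 3 lower, beside 18.6% and 34.2% of all genes.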
